A study of Mus musculus with 74 samples.

Results

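The genes described here are 37 markers of cells other than adipocytes that live in fat, taken from a table of 55487 genes. The rule that lists them names genes and uses no measured value. The markers were nonetheless chosen with earlier results of these data known. They comprise 5 macrophage genes, 3 genes of leukocytes in general and of antigen presentation, 2 T cell genes, 3 B cell genes, 3 mast cell genes, 7 endothelial genes, 7 genes of fibroblasts and adipocyte progenitors, 6 genes of mural cells (pericytes and smooth muscle) and 1 glial gene. Their RNA was followed in 2 fat depots of the mouse, brown fat (BAT) and white fat from the inguinal pad (WAT), and was set beside the open chromatin of adipocyte nuclei at the same genes. The mice were of the strain Adiponectin-Cre:NuTRAP in every RNA and ATAC library. In this strain Cre is driven by the adiponectin promoter, which is active in adipocytes, and switches on fluorescent tags on the nuclear envelope and on ribosomes. Tagged ribosomes were pulled down for RNA, and tagged nuclei were sorted for ATAC-seq, an assay that marks open chromatin. Sampling covered a day at 6 times (ZT1, ZT5, ZT9, ZT13, ZT17 and ZT21, with Zeitgeber time, ZT, in hours), with 3 libraries per depot and time, except that BAT at ZT17 had 2 RNA libraries. That gave 17 BAT and 18 WAT RNA libraries and 18 ATAC libraries per depot. No comparison of diets, feeding, sexes or ages was made, since the labels give none of them. They also do not say that replicates came from separate animals, so a p-value here reflects the spread among libraries, which may be technical.

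Fat contains many cells besides the fat cells themselves. Resident macrophages clear dead adipocytes and lipid, capillary endothelium with its pericytes feeds the tissue, and fibroblast-like progenitors in the stroma give rise to new adipocytes. Inguinal fat also surrounds a lymph node, which is packed with lymphocytes. A pull-down of ribosomes tagged in adipocytes is meant to leave the RNA of those other cells behind, so their markers are used to read how much of it is carried along. In such bulk libraries, fewer cells of a type and less RNA per cell cannot be told apart.

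Total counts per RNA library ranged from 4980153 to 46274478 for BAT and from 1301518 to 6481177 for WAT. The median share of mitochondrial genes was 0.280% for BAT and 9.64% for WAT. The loci of ribosomal RNA took 0.813% to 4.64% and 5.26% to 66.0%, and were highest in 3 WAT libraries (replicate 3 of ZT5, replicate 3 of ZT9 and replicate 2 of ZT17). The adipocyte identity of the libraries was checked on 15 adipocyte genes (the reference list). Summed over that list, levels ran from 31443 to 70545 CPM in BAT and from 15764 to 88140 CPM in WAT. Here and below CPM, the counts-per-million scale, uses library totals scaled by the trimmed mean of M values (TMM). Adipoq, the gene of adiponectin, whose promoter drives the Cre, had a mean of 258 CPM in the BAT libraries and 199 CPM in the WAT libraries.

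Of the 37 genes, 36 had a higher mean level in WAT than in BAT, and S100b alone was higher in BAT. Over all 20170 genes with at least 10 counts in total, the mean was higher in WAT for 62.2%. Leaving out S100b, the 36 other markers summed to a median of 54.0 CPM in BAT (lowest 35.1, highest 159) and 728 CPM in WAT (lowest 200, highest 1290). No BAT library reached the lowest WAT library in that sum. The WAT libraries thus carried more of this RNA.

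**Figure D1:**
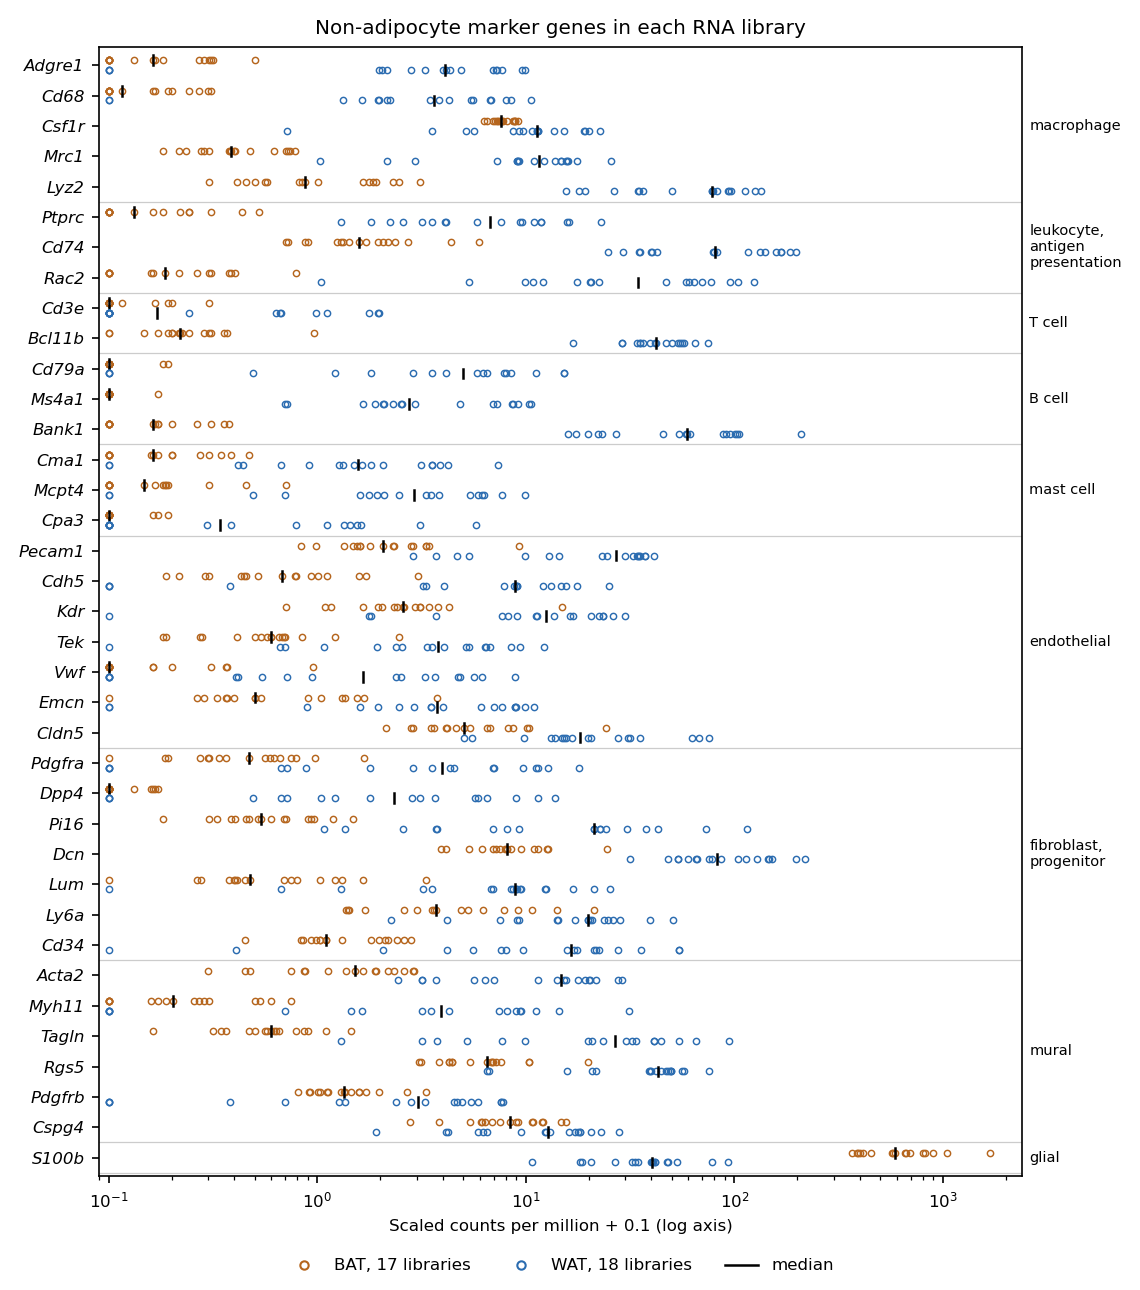
Level of each of the 37 marker genes in each RNA library (horizontal log axis, scaled CPM + 0.1), grouped by the cell type the gene marks. Circles are libraries (17 BAT, 18 WAT) and black ticks are medians. The WAT medians lie to the right for every gene but S100b, whose BAT libraries all exceed 360 CPM.

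The depot difference was tested with edgeR's quasi-likelihood test on all genes, and a call needed an adjusted p under 0.05 and a fold of at least 2. The filter on low counts kept 23 of the 37 genes, and the 14 others were not tested. The test called 21 of the 23, beside 47.3% of all genes tested. It called 20 lower in BAT, where 24.2% of all 10999 tested genes were called lower, and 1 higher in BAT, against 23.1%. Of the 23, 5 genes (Ptprc, Mrc1, Rac2, Bank1 and Bcl11b) passed only through their WAT level and therefore had to differ. The other 18 also passed the filter in BAT alone, and 15 of these were called lower in BAT. Among the 10444 genes of all kinds that passed in each depot alone, 23.2% were called lower. For those 5 genes the depots are compared below by their levels alone. Scaling by library totals in place of TMM moved the median log2 difference (BAT minus WAT) of all genes from 0.04 to 0.43 and the split of calls from 2541 higher and 2663 lower in BAT to 3640 and 1976, with 19 of the markers still called lower. Pdgfrb was the gene that lost its call under that scaling.

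**Figure D2:**
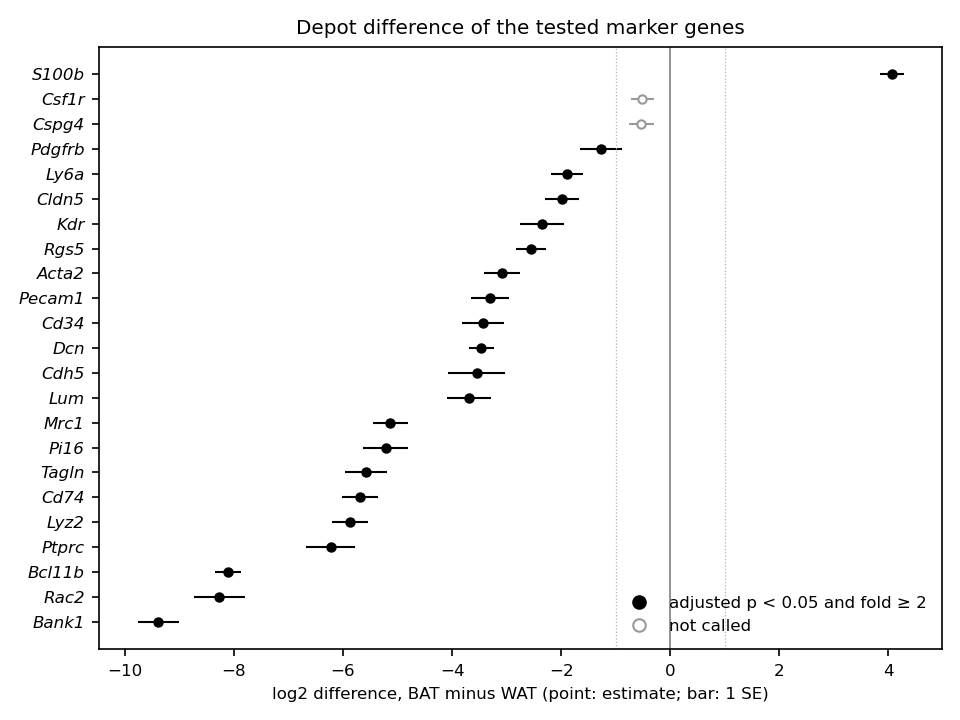
Depot difference of the 23 tested marker genes (horizontal axis, log2 BAT minus WAT; point, estimate; bar, 1 SE). Filled points passed an adjusted p under 0.05 and a fold of at least 2, and dotted lines mark that fold. S100b lies alone on the right at 4.07, and Csf1r and Cspg4 lie near 0. Ptprc, Mrc1, Rac2, Bank1 and Bcl11b passed the filter on low counts only through WAT and had to lie on the left.

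Among the macrophage genes, Lyz2 (ENSMUSG00000069516), the lysozyme of myeloid cells, had the highest TPM in WAT. It ran from 0.201 CPM to 3.02 CPM around a median of 0.770 CPM in the BAT libraries. In WAT it ran from 15.4 CPM to 133 CPM around 78.1 CPM. Every WAT library stood above every BAT library, and the log2 difference was -5.87 ± 0.33 (SE, edgeR adjusted p = 3.26e-18). Its reads can be split with a near-identical copy, Lyz1, and its count was not whole in 14 of 35 libraries, so its level is uncertain. Mrc1, the mannose receptor of tissue macrophages, was also separated without overlap, at 0.0821 to 0.680 CPM in BAT and 0.925 to 25.4 CPM in WAT. Adgre1 (F4/80) and Cd68, both defining macrophage genes, were not tested. They had 19 and 13 counts over all 17 BAT libraries, and means of 4.27 and 4.05 CPM in WAT.

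Csf1r (ENSMUSG00000024621), the receptor for the macrophage growth factor CSF1, did not follow them. In BAT it lay between 6.21 and 9.09 CPM with a median of 7.53 CPM, and in WAT between 0.617 and 22.6 CPM with a median of 11.2 CPM. The depots overlapped, and the log2 difference of -0.51 ± 0.21 (edgeR adjusted p = 0.0269) missed the fold of 2. Its coefficient of variation over the BAT libraries was 11.2%, the lowest of the 37 genes in either depot. BAT libraries thus held a near-constant level of Csf1r beside Adgre1 and Cd68 levels of at most 0.401 and 0.208 CPM.

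The 3 genes of leukocytes and antigen presentation did not overlap between depots, and Cd74, the one that also passed the filter in BAT, was called lower there. They were among 9 of the 37 markers with every WAT library above every BAT library, a pattern held by 3.75% of the 20170 genes with at least 10 counts. Cd74 (ENSMUSG00000024610), the invariant chain that escorts MHC class II, ran from 0.603 to 5.83 CPM in BAT, with a median of 1.48 CPM. In WAT it ran from 24.7 to 196 CPM, with a median of 81.0 CPM (-5.69 ± 0.33, edgeR adjusted p = 1.05e-17). Rac2 (ENSMUSG00000033220), a small GTPase of blood cells, ran from 0 to 0.693 CPM in BAT and from 0.942 to 124 CPM in WAT, with medians of 0.0850 and 34.5 CPM. Its lowest WAT library, ZT13 replicate 3, came close to the highest BAT library, while all others in WAT were above 5 CPM. Ptprc, the CD45 phosphatase common to leukocytes, had means of 0.0912 CPM in BAT libraries and 7.92 CPM in WAT libraries.

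The lymphocyte genes had few counts in BAT. Bcl11b (ENSMUSG00000048251), a transcription factor of T cell identity, ran from 0 to 0.866 CPM in BAT, with a median of 0.119 CPM. In WAT it ran from 16.6 to 74.3 CPM, with a median of 41.8 CPM. Its coefficient of variation of 32.3% was the lowest of the 37 genes in WAT. Cd3e, a chain of the T cell receptor complex and the defining T cell gene of the list, had 5 counts in all BAT libraries together. In WAT it ran from 0 to 1.88 CPM with a median of 0.0711 CPM and had a count in 9 of 18 libraries. WAT libraries thus held Bcl11b throughout, with few or no counts of Cd3e. Other T cell genes outside the 37, Cd3d, Cd3g and Trac among them, did pass the filter on low counts within WAT. Low Cd3e alone therefore does not show that T cell receptor RNA was absent there. Those genes were named after their values were seen.

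Bank1 (ENSMUSG00000037922), a scaffold of B cell receptor signalling, ran from 0 to 0.278 CPM in BAT, with 18 counts in all, and from 15.8 to 208 CPM in WAT, with a median of 58.9 CPM. Cd79a, the signalling chain of the B cell receptor, and Ms4a1, which encodes CD20, are the defining B cell genes of the list and were too low to test. They had 2 counts and 1 count over the BAT libraries, and means of 5.39 and 4.66 CPM in WAT. Ms4a1 had a count in every WAT library, and Cd79a in 15 of 18. Per length, Bank1 stood at 24.7 ± 19.8 TPM (mean ± SD, 18 libraries) in the deposited WAT table, against 4.27 ± 4.39 TPM for Cd79a and 1.53 ± 1.28 TPM for Ms4a1.

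The mast cell proteases were low in both depots, and none of the 3 was tested between depots. The chymases Cma1 and Mcpt4 had 23 and 18 counts over the BAT libraries. In WAT they had medians of 1.47 and 2.80 CPM and highest values of 7.22 and 9.82 CPM, both in ZT9 replicate 2. Cpa3, the carboxypeptidase of mast cell granules, had 6 counts in BAT and a median of 0.239 CPM in WAT.

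Of the 7 endothelial genes, 4 were tested and all 4 were called lower in BAT, beside 24.2% of all genes tested. Cldn5 (ENSMUSG00000041378), a tight junction protein, ran from 2.04 to 24.1 CPM around a median of 4.95 CPM in BAT. In WAT it ran from 4.94 to 75.6 CPM around 18.1 CPM, so the depots overlapped (-1.99 ± 0.31, edgeR adjusted p = 5.48e-07). Pecam1 (ENSMUSG00000020717), an adhesion molecule of endothelial junctions, had medians of 1.97 CPM in BAT and 27.0 CPM in WAT, with ranges of 0.739 to 9.14 CPM and 2.78 to 41.0 CPM (-3.30 ± 0.34, edgeR adjusted p = 6.97e-11). Kdr, the main VEGF receptor, and Cdh5, VE-cadherin, differed by -2.35 and -3.55. The angiopoietin receptor Tek, von Willebrand factor Vwf and the sialomucin Emcn were not tested and averaged 0.107 to 0.795 CPM in BAT and 2.42 to 4.86 CPM in WAT. The highest BAT value of all 7 genes came from ZT21 replicate 3, where their sum was 57.8 CPM against a BAT median of 10.4 CPM.

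Fibroblast and progenitor genes summed to a median of 154 CPM in WAT against 15.1 CPM in BAT. Of the 7, 5 were tested and all 5 were called lower in BAT, beside 24.2% of all genes tested. Dcn (ENSMUSG00000019929), the matrix proteoglycan decorin, had the highest TPM of them in WAT. It ran from 3.81 to 24.4 CPM in BAT, around a median of 8.00 CPM, and from 31.5 to 217 CPM in WAT, around 82.1 CPM. The depots did not overlap (-3.47 ± 0.23, edgeR adjusted p = 3.40e-16). Pi16 (ENSMUSG00000024011), found on early stromal progenitors, ran from 0.0821 to 1.39 CPM in BAT and from 0.973 to 114 CPM in WAT, with medians of 0.439 and 21.01 CPM (-5.22 ± 0.41, edgeR adjusted p = 6.28e-14). The proteoglycan Lum, the progenitor surface protein Cd34 and Ly6a (Sca-1) were called lower in BAT as well, by -3.69, -3.43 and -1.89. Pdgfra, a growth factor receptor of stromal progenitors, and Dpp4, a surface peptidase of them, were not tested and averaged 0.438 and 0.0172 CPM in BAT and 5.26 and 3.69 CPM in WAT.

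Mural genes were mixed in the size of their difference. Rgs5 (ENSMUSG00000026678), a pericyte regulator of G protein signalling, ran from 2.97 to 19.8 CPM in BAT and from 6.42 to 75.0 CPM in WAT, with medians of 6.43 and 43.1 CPM (-2.56 ± 0.28, edgeR adjusted p = 2.55e-10). Tagln (ENSMUSG00000032085), the actin-binding protein of smooth muscle, ran from 0.0627 to 1.35 CPM and from 1.20 to 93.8 CPM, with medians of 0.502 and 26.7 CPM (-5.58 ± 0.39, edgeR adjusted p = 1.50e-15). For both, the lowest WAT libraries reached into the BAT range, and most WAT libraries stood above it. Acta2, smooth muscle actin, differed by -3.09 ± 0.33, and Pdgfrb, the pericyte growth factor receptor, by -1.27 ± 0.38 (edgeR adjusted p = 1.53e-10 and 0.00318). Myh11, smooth muscle myosin, was not tested and had means of 0.177 and 6.32 CPM in BAT and WAT.

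Cspg4 (ENSMUSG00000032911), the NG2 proteoglycan of pericytes, was the mural gene with the smallest difference. It ran from 2.67 to 15.4 CPM in BAT and from 1.80 to 28.0 CPM in WAT, with medians of 8.25 and 12.7 CPM. The depots overlapped over most of that range, and -0.53 ± 0.23 (edgeR adjusted p = 0.0356) missed the fold of 2. Within WAT its high and low libraries were not those of Tagln. Cspg4 was highest in ZT9 replicate 3, at 28.0 CPM, where Tagln stood at 5.14 CPM, and lowest in ZT9 replicate 2, at 1.80 CPM, where Tagln stood at 54.1 CPM.

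S100b (ENSMUSG00000033208), a calcium-binding protein used as a glial and Schwann cell marker, went the other way. It ran from 367 to 1674 CPM in the BAT libraries, with a median of 586 CPM, and from 10.6 to 92.9 CPM in WAT, with a median of 40.0 CPM. Every BAT library stood above every WAT library, a pattern held by 6.23% of the 20170 genes. The log2 difference was 4.07 ± 0.22 (edgeR adjusted p = 1.05e-18). In the deposited BAT table it averaged 374 ± 107 TPM (SD, 17 libraries), rank 377 of the 14045 genes listed there. Summed over 8 other glial genes, BAT libraries held 18.9 to 32.4 CPM. Of these 8, 4 were tested and all 4 were called lower in BAT, beside 24.2% of all genes tested. Among the 4 was the myelin gene Mbp, at 18.02 against 130 CPM in WAT. The WAT libraries were widely spread. Their sums of the 8 genes ran from 30.2 to 1480 CPM, with a mean of 241 and a median of 105 CPM. Sox10, the transcription factor of the glial lineage, named after its values were seen, averaged 0.0479 CPM in BAT. The glial label of S100b thus went against the other glial genes in BAT. In WAT, S100b was highest in ZT13 replicate 3, at 92.9 CPM. That was also the library with the highest sum of the 8 other glial genes, at 1480 CPM. The 2 did not go together throughout. ZT13 replicate 2 was among the 3 highest WAT libraries for the 8 other genes and among the 3 lowest for S100b. The part of glial RNA in the S100b level was not tested.

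Lists of further marker genes for the same cell types, none of them among the 37, were read in the same test. These lists too were chosen with earlier results of these data known. Of 14 macrophage and myeloid genes, 11 were tested and 11 were called lower in BAT, beside 24.2% of all genes tested. For lymphoid genes it was 9 of 9 tested (of 19), for endothelial genes 9 of 10 tested (of 12), for fibroblast and progenitor genes 10 of 10 tested (of 12), and for mural genes 3 of 4 tested (of 8). Of 7 further mast cell genes 2 were tested and 0 were called lower by edgeR, with 1 called higher. As with the markers, a gene could pass the filter through WAT alone, so these counts are descriptions. The gene Lyve1 was in both the macrophage and the endothelial list and is counted in each. C1qa, a complement gene of macrophages, had means of 2.34 CPM (BAT) and 31.8 CPM (WAT). Coro1a, a cytoskeletal gene of leukocytes, averaged 0.442 and 87.9 CPM, and Flt1, a VEGF receptor, 9.23 and 112.2 CPM. Gsn, the actin-severing protein gelsolin, averaged 322 and 1809.5 CPM. Cd36, a fatty acid transporter of endothelium and adipocytes, missed the fold (-0.48 ± 0.12). Called higher in BAT were the muscle filament gene Des, at 67.7 against 29.3 CPM, and Hdc, the histamine-making enzyme of the mast cell list, at 8.97 against 0.849 CPM. The 15 adipocyte genes were called in both directions, 2 higher and 3 lower in BAT, with a median of 0.30.

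Within BAT, 1 library stood apart for several cell types together. ZT21 replicate 3 had the highest sum of the endothelial, fibroblast and mural markers, and the 36 markers without S100b summed to 159 CPM there against a median of 54.0 CPM. Of the lists of further genes, the endothelial and lymphoid ones were also highest there, at 246 and 27.0 CPM. The further fibroblast list was highest in ZT9 replicate 3 (588 CPM), the mural list in ZT13 replicate 3 (108 CPM) and the myeloid list in ZT9 replicate 1 (15.3 CPM). The adipocyte list of ZT21 replicate 3, at 35809 CPM, was within the range of the other BAT libraries. The erythroid list, of blood, was also highest in ZT21 replicate 3, at 383 CPM against a median of 80.6 CPM. S100b stood at 399.8 CPM in that library, below its BAT median. Without that library no marker that was still tested changed its depot call.

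Within WAT, the summed markers were lowest, and the adipocyte list highest, at ZT17 and ZT21 by their means. The 36 markers without S100b averaged 1036 CPM at ZT1, 921 CPM at ZT5, 854 CPM at ZT9, 863 CPM at ZT13, 369 CPM at ZT17 and 429 CPM at ZT21. The adipocyte list averaged 47738 CPM at ZT1, 18371 CPM at ZT5, 31771 CPM at ZT9, 24503 CPM at ZT13, 68281 CPM at ZT17 and 71394 CPM at ZT21, and its ZT1 libraries ran from 33775 to 70848 CPM. The part of adipocyte RNA in the marker sums was not tested. The cell types did not share 1 profile. The 7 endothelial markers summed to 145 to 172 CPM at ZT1 and to at most 114 CPM at any other time, and fibroblast markers were also highest at ZT1, at 263 to 489 CPM. The list of 12 further endothelial genes did not share that peak, with 513 to 611 CPM at ZT1 and up to 681 CPM at ZT9, 714 CPM at ZT13 and 684 CPM at ZT17. The 3 B cell markers summed to 102 to 123.2 CPM at ZT5 and 17.9 to 63.8 CPM at ZT17, and most of that was Bank1, with 94.9 of a mean of 111.8 CPM at ZT5. The 3 ZT13 libraries were far apart, with B cell sums of 215 and 108 CPM in replicates 1 and 2 and 29.2 CPM in replicate 3. These sums are given without a test.

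**Figure D3:**
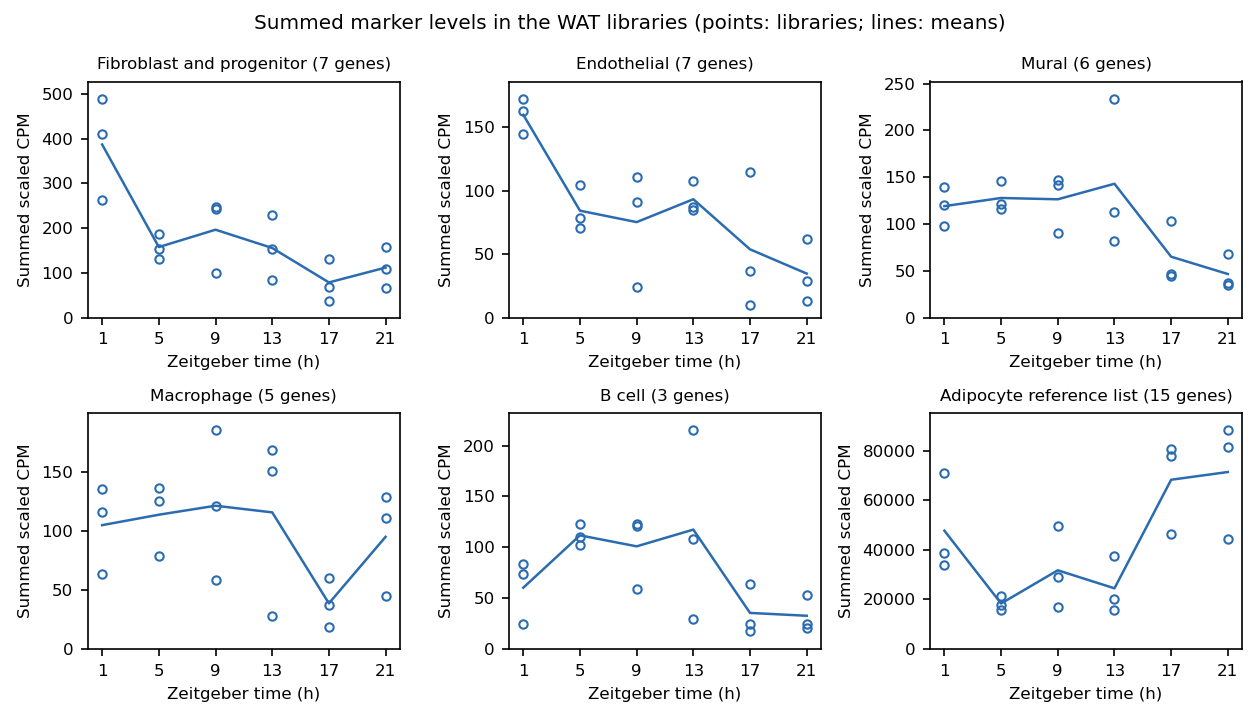
Summed scaled CPM of 5 groups of markers and of the 15 adipocyte reference genes in the 18 WAT libraries by Zeitgeber time. Points are libraries and lines join the means. Fibroblast and endothelial sums are highest at ZT1, macrophage and fibroblast means are lowest at ZT17, and the adipocyte list is highest at ZT17 and ZT21.

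The rhythm test asked whether a gene followed a 24 h curve within a depot. A cosine and a sine were tested together by edgeR over all genes, and the size is the peak-to-trough difference of the fitted curve. In BAT, 21 of the 37 genes were tested and 0 were called, where 9.17% of all 12394 genes were. At an unadjusted p under 0.05 there were 2, S100b and Acta2, beside 4025 of the 12394 genes. DESeq2 called S100b, and a test of time as a factor called Acta2. S100b averaged 484 CPM at ZT1, 450 at ZT5, 1139 at ZT9, 760.5 at ZT13, 582 at ZT17 and 583 at ZT21, and the 3 ZT9 libraries stood at 698, 1045 and 1674 CPM. Its fitted peak-to-trough difference was 0.97 ± 0.30 log2 with the peak at ZT11.5 (edgeR adjusted p = 0.0847). Without BAT ZT21 replicate 2 the gene passed (adjusted p = 0.0119). Acta2 had a fitted difference of 1.48 ± 0.51 log2 (edgeR adjusted p = 0.121), with 0.2004 to 0.376 CPM in the 3 ZT5 libraries and 0.646 to 2.79 CPM in the others.

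In WAT, 35 of the 37 genes were tested and 4 were called rhythmic, Acta2, Rac2, Bank1 and Ms4a1, which is 4 of 35 beside 9.9% of all 12703 genes. At an unadjusted p under 0.05 there were 15, beside 3422 of the 12703 genes. The median peak-to-trough difference of the 35 was 1.42 log2 beside 0.98 over all genes tested. That size cannot be under 0. With at least 10 counts in total as the filter, which adds low genes, its median over all genes was 1.22. The part of low counts in the 1.42 was not tested. The fitted peak of each of the 4 called genes fell between ZT6.57 and ZT8.85. All 4 were low at ZT17 and ZT21, the times when the adipocyte list was high. The share of mitochondrial genes ran from 0.685% to 9.43% at those 2 times and from 2.52% to 27.6% at the others. The part of either measure in these rhythms was not tested.

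Acta2 (ENSMUSG00000035783), smooth muscle actin, stood at 11.3 to 15.1 CPM at ZT1, 17.7 to 28.8 at ZT5, 15.4 to 27.7 at ZT9, 6.28 to 21.7 at ZT13, 2.33 to 5.52 at ZT17 and 3.07 to 6.89 at ZT21. Every library at ZT1, ZT5 and ZT9 stood above every library at ZT17 and ZT21. The fitted difference was 2.59 ± 0.46 log2 with the peak at ZT7.04 (edgeR adjusted p = 0.00486), and it passed in all 25 other settings tried, with adjusted p from 2.21e-05 to 0.0187. Of the other mural genes, Tagln followed with 2.52 ± 0.76 log2 at ZT7.76 but did not pass (edgeR adjusted p = 0.0751). Cspg4 had its fitted peak at ZT20.1 (1.21 ± 0.52 log2, edgeR adjusted p = 0.255) and passed only without WAT ZT9 replicate 3 (0.00671) or without the 3 libraries richest in ribosomal RNA.

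Rac2 stood at 77.5 to 124 CPM in the 3 ZT5 libraries, at 5.24 to 17.5 CPM at ZT17 and at 9.77 to 20.1 CPM at ZT21. At ZT13 its libraries spread from 0.942 to 95.4 CPM. The fitted difference was 2.76 ± 0.69 log2 at ZT6.74 (edgeR adjusted p = 0.0325). Bank1 stood at 88.5 to 101 CPM at ZT5, at 27.0 to 208 CPM at ZT13 and at 17.3 to 58.6 CPM at ZT17, with 1.92 ± 0.49 log2 at ZT8.85 (edgeR adjusted p = 0.0337). Ms4a1 stood at 7.14 to 10.3 CPM at ZT5 and 0.599 to 2.46 CPM at ZT17 and ZT21, with 2.48 ± 0.65 log2 at ZT6.57 (edgeR adjusted p = 0.0408). For all 3 genes the ZT5 libraries stood above the ZT17 and ZT21 libraries without overlap, while ZT9 and ZT13 were spread. Cd79a, the other B cell gene, had 2.72 ± 0.97 log2 (edgeR adjusted p = 0.142), and Bcl11b 0.72 ± 0.29 log2 (edgeR adjusted p = 0.214), so neither passed.

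The WAT calls other than Acta2 depended on single libraries. Of 25 other settings, Rac2 lost its call in 7, Bank1 in 9 and Ms4a1 in 13. The number of markers called ran from 1 to 10 when 1 library was left out. It was 1 without ZT5 replicate 1, ZT5 replicate 2, ZT9 replicate 2, ZT17 replicate 1, ZT17 replicate 3, ZT21 replicate 1 or ZT21 replicate 3, and 2 without ZT9 replicate 1. It was 10 without ZT9 replicate 3 and 9 without ZT13 replicate 2. Without the 3 libraries richest in ribosomal RNA it was 13, and DESeq2 called 8. The calls over all genes moved as well, from 1257 of 12703 in the main test. They ran from 472 to 2519 when 1 library was left out. Without those 3 libraries they were 2689 of 13626, and with DESeq2 2075 of 12703.

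**Figure D4:**
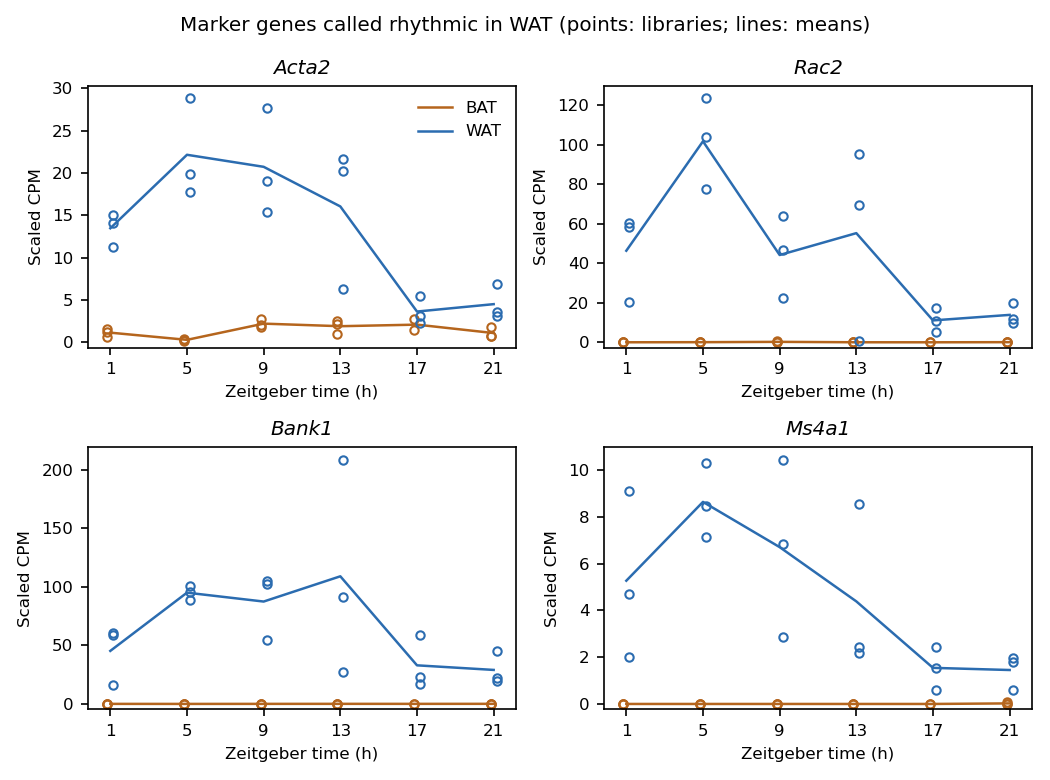
Scaled CPM of the 4 marker genes called rhythmic in WAT, by Zeitgeber time, with BAT for comparison. Points are libraries and lines join the means at each time. WAT values are low at ZT17 and ZT21 in all 4 genes, and BAT values stay under 3 CPM.

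Whether the rhythm differed between depots was tested by the interaction of depot with the curve. Of 23 genes tested, 1 was called, Acta2, beside 12.9% of all 10999 genes. The amplitude of the difference between its 2 curves was 1.77 ± 0.36 log2 (edgeR adjusted p = 0.0103), and the call held in the 41 other settings tried (adjusted p from 0.000375 to 0.0231). The BAT values of Acta2 rest on 326 counts in 17 libraries. Rac2 and Bank1 were called in WAT and were not tested for rhythm in BAT. They did not pass the test of the difference (edgeR adjusted p = 0.638 and 0.490). With 28 and 18 counts over the 17 BAT libraries they could not be followed over the day there, so that result says little about them. Leaving out BAT ZT9 replicate 1, WAT ZT9 replicate 3 or WAT ZT13 replicate 2 gave 2 calls. The authors' deposited table of JTK_CYCLE results, a rank test for rhythms, lists 23 of the markers in BAT and 35 in WAT and gives a q-value under 0.05 to 0 of them in either depot. The authors' deposited table does so for 4.34% of all genes listed in BAT and 0.136% in WAT, and its lowest q-values among the markers were 0.0862 for Csf1r in BAT and 0.142 for Acta2 in WAT.

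In the ATAC peak sets of sorted adipocyte nuclei, few of the markers had a peak at the promoter. A promoter peak was a deposited peak assigned to the gene within 1 kb of its start site. In BAT 2 of the 37 genes had one, S100b and Pdgfra, beside 64.9% of the 14045 genes listed with TPM in BAT. Only 23 of the 37 are listed with TPM there, and the 14 others had no promoter peak. In WAT 1 of 37 had one, Cspg4, beside 64.4% of 12536 genes, among which 35 of the markers are listed. The adipocyte list had 14 of 15 in each depot. The contrast was present at matched levels of RNA as well. In BAT, 15 markers were under 1 TPM and 1 of these had a peak, beside 48.5% of the 4987 genes there. At 1 to 10 TPM in BAT, 0 of 7 markers had one, beside 70.9% of 5152 genes. Of the 11 markers with 10 to 100 TPM in WAT, among them Cd74 at 86.2 TPM, Dcn at 61.6 TPM and Lyz2 at 55.3 TPM, 0 had a promoter peak, while 73.8% of the 3223 genes in that band did. S100b was both the most abundant marker in BAT and 1 of the 2 with a BAT promoter peak, but had none in WAT, where it averaged 25.0 TPM. A gene without a peak is one that the authors' peak set does not list at its start, and accessibility there was not measured. By start sites of RefSeq, whatever gene the peak was assigned to, S100b in BAT and Cspg4 in WAT were left, since the Pdgfra peak was not within that distance of the start listed for it. That check was added after the values had been seen and covered the 23 genes with a start in the promoter table.

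**Figure D5:**
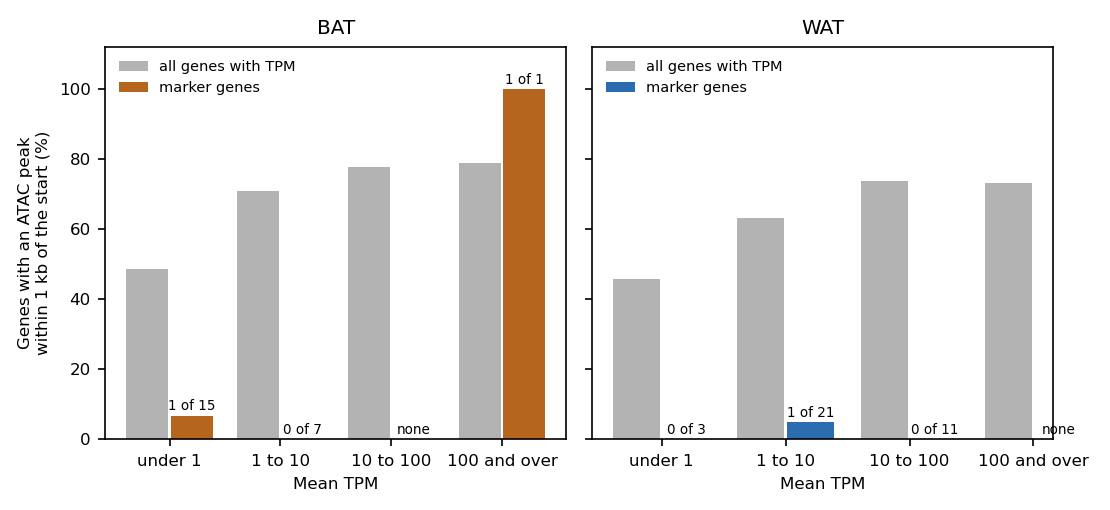
Share of genes with an ATAC peak within 1 kb of the start (vertical axis, percent) by mean TPM of the RNA, in BAT and WAT. Grey bars are all genes with TPM and coloured bars the markers, with the number with a peak of the number in the band. Grey bars run from 45.7% to 78.9%, and 1 of 21 markers at 1 to 10 TPM and 0 of 11 at 10 to 100 TPM in WAT have a peak.

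The promoters of 5 markers are shown because they carry this contrast. S100b and Cspg4 had a promoter peak in 1 depot, Lyz2 had the highest WAT RNA per length of the markers with no promoter peak there and a sequence in the table used, Bank1 was called rhythmic in WAT, and Acta2 was the marker called in the test of the rhythm difference. S100b, Bank1 and Acta2 were added after their values had been seen. Each run is 300 bases from RefSeq on GRCm38.p6, from 250 bases before the start site to 50 after it, 5′ to 3′ on the strand of the gene, and capitals mark any match to a motif searched on both strands. The windows are chr10:76253586-76253885 on the plus strand for S100b, chr9:56864854-56865153 on the plus strand for Cspg4, chr10:117282223-117282522 on the minus strand for Lyz2, chr3:136326017-136326316 on the minus strand for Bank1 and chr19:34255324-34255623 on the minus strand for Acta2.
S100b: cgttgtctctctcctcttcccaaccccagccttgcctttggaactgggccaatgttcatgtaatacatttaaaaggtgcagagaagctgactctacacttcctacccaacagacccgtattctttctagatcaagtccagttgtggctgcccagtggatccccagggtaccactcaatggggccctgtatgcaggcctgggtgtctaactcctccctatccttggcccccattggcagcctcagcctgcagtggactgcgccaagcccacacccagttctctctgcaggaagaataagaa
Cspg4: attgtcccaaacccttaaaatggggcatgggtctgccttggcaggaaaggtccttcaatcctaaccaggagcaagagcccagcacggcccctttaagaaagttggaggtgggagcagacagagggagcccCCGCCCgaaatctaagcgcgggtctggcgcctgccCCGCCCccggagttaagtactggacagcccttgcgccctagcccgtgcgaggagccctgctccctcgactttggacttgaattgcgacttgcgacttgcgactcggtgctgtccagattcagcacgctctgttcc
Lyz2: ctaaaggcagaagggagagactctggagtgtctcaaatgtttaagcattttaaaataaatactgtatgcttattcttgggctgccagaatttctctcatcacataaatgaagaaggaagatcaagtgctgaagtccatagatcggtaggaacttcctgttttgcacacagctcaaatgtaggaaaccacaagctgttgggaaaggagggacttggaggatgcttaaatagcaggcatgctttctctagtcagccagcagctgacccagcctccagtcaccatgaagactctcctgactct
Bank1: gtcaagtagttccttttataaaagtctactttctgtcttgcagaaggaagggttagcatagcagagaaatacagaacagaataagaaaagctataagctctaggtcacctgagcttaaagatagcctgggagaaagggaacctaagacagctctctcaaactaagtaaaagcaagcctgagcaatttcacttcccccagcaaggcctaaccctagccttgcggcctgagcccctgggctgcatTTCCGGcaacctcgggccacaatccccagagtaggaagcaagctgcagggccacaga
Acta2: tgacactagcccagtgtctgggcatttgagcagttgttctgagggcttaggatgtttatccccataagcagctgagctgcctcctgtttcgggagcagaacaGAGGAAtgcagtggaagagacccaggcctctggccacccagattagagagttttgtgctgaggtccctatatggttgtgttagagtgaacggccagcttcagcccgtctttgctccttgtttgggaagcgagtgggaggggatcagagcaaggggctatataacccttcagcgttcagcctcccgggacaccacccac

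The motifs searched were the PU.1 core GAGGAA, the ETS core CCGGAA, the GC box GGGCGG, the E-box CACGTG, the EBF1 palindrome (TCCC, then any 2 bases, then GGGA) and the CArG box in its strict form (CC, then 6 bases that are each A or T, then GG), all without mismatches. They were found in 28.3%, 14.9%, 35.7%, 7.15%, 0.904% and 1.63% of all 32851 promoter windows of the same length. The Cspg4 window holds 2 GC boxes on the opposite strand, at -120 and -85 from the start, and the 150 bp WAT peak lies inside the window. The Bank1 window holds an ETS core on the opposite strand at -7, and the Acta2 window a PU.1 core at -148. S100b and Lyz2 hold none of these letters, and the S100b window contains the whole 150 bp BAT peak. Of the 23 markers with a window in the table, 11 held a PU.1 core in at least 1 window, 5 a GC box, 2 an ETS core and 1 the EBF1 palindrome. The number with an E-box was 0, and so was the number with a strict CArG box. Forms with a mismatch were not searched, so this does not show that the Acta2 window lacks a CArG box. The letters alone do not show that a factor binds.

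The S100b promoter peak (chr10:76253720-76253870, annotated as promoter, 41 bp before the start) held 11.8 to 29.6 CPM of tags in the 18 BAT ATAC libraries, with a median of 20.1. CPM of tags uses the tags in the peak set of that depot, scaled by TMM. It is not on the scale of the RNA values. It was a weak promoter peak, since 66.8% of the 12542 BAT promoter peaks had a higher mean. By time it stood at 13.5 to 15.7 CPM of tags at ZT1, 16.01 to 22.3 at ZT5, 11.8 to 24.8 at ZT9, 22.4 to 24.1 at ZT13, 21.5 to 29.6 at ZT17 and 17.5 to 21.3 at ZT21. The ZT1 libraries lay under the ZT13 and ZT17 libraries without overlap. The fitted curve had a difference of 0.66 ± 0.18 log2 with the peak at ZT15.0 (edgeR adjusted p = 0.0357), where 18.9% of all 42572 BAT peaks were called. It passed with 10 of the 18 libraries left out in turn and lost its call without ZT1 replicate 1, 2 or 3, ZT5 replicate 2, ZT13 replicate 1 or 2, or ZT17 replicate 2 or 3 (adjusted p up to 0.0882). Its RNA had the fitted peak at ZT11.5 and did not pass. Another S100b region, 4383 bp into the gene in intron 2, held 35.6 ± 2.05 CPM of tags (SD, 18 libraries) and was not called (edgeR adjusted p = 0.286). The Pdgfra peak, in intron 1 and 211 bp from the start the authors' table gives it, held 10.3 to 17.4 CPM of tags and was not called either (0.25 ± 0.13 log2, edgeR adjusted p = 0.323).

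The Cspg4 promoter peak (chr9:56864966-56865116, 63 bp before the start) held 21.02 to 37.4 CPM of tags in the 18 WAT libraries, with a median of 30.5. It too was a weak promoter peak, since 73.9% of the 10767 WAT promoter peaks had a higher mean. At ZT9 it stood at 35.1 to 37.4 CPM of tags and at ZT21 at 21.02 to 27.5, with no overlap. The fitted difference was 0.58 ± 0.12 log2 with the peak at ZT10.5 (edgeR adjusted p = 0.00607), where 15.8% of all 25050 WAT peaks were called, and it passed in the 23 other settings tried. The regions 3954 and 4522 bp before the start were also called in WAT (edgeR adjusted p = 0.0131 and 0.0423), and the regions nearest to these in BAT were not (0.546 and 0.788). Those regions were named after their values were seen, and the difference between depots was not tested. The RNA of Cspg4 in WAT, at a fitted peak of ZT20.1, did not pass.

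Regions that both peak sets held could be compared between depots, and 13 of the 21626 shared regions were assigned to a marker. The number within 1 kb of a start was 0, so all 13 are distal and were named after their values were seen. Tag levels are scaled here over the shared regions alone. The edgeR test called 3 of the 13 at a fold of at least 2, where it called 7.13% of all shared regions, and 2 of the 3 were higher in BAT, beside 3.58%. A Cspg4 region 4518 bp before the start held 58.0 ± 4.32 CPM of tags in BAT and 26.7 ± 4.44 in WAT (SD, 18 libraries each), with ranges of 51.8 to 65.0 and 21.1 to 36.3 that did not overlap (1.14 ± 0.05 log2, edgeR adjusted p = 1.53e-22). Its neighbour 3953 bp before the start was higher in BAT by 0.96 ± 0.05, under the fold needed. Bcl11b had 1 called region in each direction, an intronic one 42112 bp from the start at 50.7 CPM of tags in BAT and 19.9 in WAT, and an intergenic one 84250 bp before it at 12.1 and 27.4. The intronic region ran from 44.7 to 60.4 against 12.8 to 28.0 without overlap, and the intergenic one from 6.59 to 18.2 against 17.7 to 38.8, with overlap at the ends. The Cspg4 region was thus higher in BAT while Cspg4 RNA missed the fold of 2, and the Bcl11b regions differed in direction while Bcl11b RNA was lower in BAT.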

How the data were processed

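RNA was measured in 35 libraries of ribosome-bound RNA and open chromatin in 36 ATAC-seq libraries. The markers and all gene lists were chosen with earlier results of these data known. The deposited RNA table holds estimated counts per gene that the authors did not scale between libraries. Per the submitters' processing notes, the tools were Bowtie2 2.4.1, DESeq2, HOMER, limma, RSEM 1.3.0 and STAR 2.7.5 with the build mm10, and their roles are not listed. Whether counting used strand is not stated in those notes. The authors also deposited TPM beside q-values (p-values corrected for multiple tests) of JTK_CYCLE, for the genes they kept. Per the file headers, ATAC values are raw tag counts per 150 bp peak from HOMER, over 1 peak set per depot. Among the TPM columns, 1 matched no sample and was not used.

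Counts were rounded and tested with edgeR 4.0.16 (R 4.3.3), with TMM scaling, filterByExpr, the quasi-likelihood test and Benjamini-Hochberg adjustment over all features. Depot was fitted with time as a factor, and rhythm as a cosine and sine of 24 h. Each ± after a log2 value is a standard error obtained from the F statistic. Scripts were tested on simulated data. Shared regions overlapped by at least 50% of their length (bedtools 2.31.1). Genes given in full were the 2 of each cell type with the highest mean CPM, those called in a rhythm test and those higher in BAT. Of any other list at most the 2 most abundant genes were named, apart from exceptions stated. Alternatives were DESeq2 1.42.0, limma 3.58.1 with voom, other scalings and filters, the replicate number as a block, time as a factor, and each library left out. The BMAL1 ChIP data were not used. Depth is limiting in WAT, where the smallest library held 1301518 counts and ATAC libraries 1623006 to 5294923 tags in peaks.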

Additional observations from a re-analysis of the deposited data

Results flagged for a closer look

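Acta2 RNA followed different 24 h curves in BAT and WAT by the interaction test, with an amplitude of the difference of 1.77 log2 (edgeR adjusted p = 0.0103). WAT values ranged from 2.33 to 28.8 CPM and BAT values from 0.2004 to 2.79 CPM. It was the only marker of 23 tested to pass. Summed over the mural markers, WAT libraries averaged 128 CPM at ZT5 and 46.5 CPM at ZT21.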

How the results depend on the processing

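The number of markers called lower in BAT was 33 of 37 with at least 10 counts in total as the filter (11015 genes called in all against 5204). Of all genes, 6744 of 20183 were then called lower, against 2663 of 10999. That filter let in markers with almost no BAT counts, such as Ms4a1 with 1, which had to differ. The number called lower was 19 with library totals and 18 to 20 with 1 library left out. The number higher in BAT stayed at 1 to 1 with 1 library left out. Of single depot calls, Pdgfrb changed under 2 settings. Rhythm calls moved more. In BAT the markers called were 1 with DESeq2 (2455 genes in all against 1136), 1 with time as a factor (617 genes) and 0 to 1 with 1 library left out (460 to 3383 genes). In WAT they were 8 with DESeq2 (2075 genes against 1257) and 13 without the 3 libraries richest in ribosomal RNA (2689 genes). With time as a factor they were 11 (1589 genes) and with the lower filter 6 (1509 genes). With 1 library left out they were 1 to 10 (472 to 2519 genes). For the rhythm difference they were 2 with DESeq2 (2690 genes against 1418), 4 without those 3 libraries (3641 genes) and 1 to 2 with 1 library left out (571 to 3015 genes). In the BAT ATAC data 0 to 1 marker peaks were called with 1 library left out (6105 to 8236 peaks), and time as a factor called 14063 peaks against 8053. In WAT it was 1 to 1 (3240 to 4068 peaks). Shared regions called were 1022 with an overlap of 90% and 1513 to 1587 with 1 library left out. Within 5000 bp of a start, 7 markers had a peak in BAT and 3 in WAT, and by RefSeq starts 1 in BAT. Where the construction of a setting does not show it, the cause was not tested. Across the settings run, 0 of the markers' depot differences in RNA reversed direction. A rhythm size has no sign and could not reverse, and single shared ATAC regions were not followed across settings.

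Libraries of the same replicate number were only slightly more alike than others. The median correlation of same-numbered libraries was 0.0714 and 0.0289 in BAT and WAT RNA and 0.00230 and 0.0426 in ATAC. For libraries of other numbers it was -0.0519 and -0.0277 in RNA and -0.00551 and -0.0251 in ATAC. Among the 3 numbers, 9 of 17, 11 of 18, 8 of 18 and 10 of 18 libraries correlated best with their own. Whether the numbers stand for a pairing was not tested. With the replicate block, markers called were 20 lower and 1 higher in BAT, 0 rhythmic in BAT RNA, 6 in WAT RNA, 1 for the rhythm difference and 1 in each ATAC test, and 1544 shared regions were called. Over all features the block gave 5200, 812, 1348, 1311, 7412 and 3953 calls in the same order.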

Other observations

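Skeletal muscle genes, listed as markers of tissue next to a fat pad, summed to 47.0 to 1057 CPM in the BAT libraries. The median was 171 CPM and the highest value was in ZT13 replicate 3. In WAT they summed to 11.7 to 601 CPM, with a median of 68.9 CPM and the highest value in ZT9 replicate 3. Of 10 such genes, 9 were tested and 5 were called higher in BAT by edgeR, beside 23.1% of all genes. Genes named next were picked after their values were seen. Mb had the largest log2 difference, 3.11, while Ckm, Myh4, Myh1 and Atp2a1 were not called (0.50, 0.34, 0.04 and 0.03). The part of neighbouring muscle in these levels was not tested.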
